A study of Mus musculus with 18 samples.

Results

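The comparison described here asks whether alveolar type II cells that lack Cebpa (knockout cells, after their label) changed differently from control cells between 2 and 24 h of the experiment. For each gene it is the log2 change from 2 to 24 h in knockout cells minus the same change in control cells, called the interaction below. It uses 12 of the 18 arrays of the series, 3 for each genotype at each of the 2 times. The 6 arrays at 0 h were left out by rule, because their values span another range. A negative interaction means that the gene ended lower, relative to its 2 h level, in knockout cells than in controls, and a positive one that it ended higher.

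Total RNA came from type II cells isolated from mice of 7 to 8 weeks and was measured on Affymetrix-type expression arrays. The animals labelled CCSP/rtTA/CEBPa(flx/flx) carry both floxed copies of Cebpa and an rtTA transgene named for CCSP, the secretory protein of Clara cells, and by the series design they lost Cebpa in the early fetal airway (Clara cells) and, shortly before birth, in type II cells. The control animals were littermates with the same floxed alleles that had no rtTA or no Cre gene, so both genotypes share the floxed alleles and which transgene a given control carries is not labelled. The Cre gene is not named in the label of the deleted animals. Times come from the titles and the exposure, hyperoxia, from the series design, whereas the description of each sample says air. Nothing in the labels ties an array to a separate animal or to a batch, so the p-values cover only the spread among these arrays, which may be technical.

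Type II cells line the alveolus, secrete surfactant and can turn into the flat type I cells through which gas is exchanged. C/EBPα is a basic leucine zipper transcription factor that binds DNA as a dimer and, in the lung epithelium, drives genes of lipid synthesis and differentiation. High oxygen injures the alveolar epithelium, and the first day of exposure is when stress, antioxidant and repair genes begin to move. In bulk RNA a lower level can come from fewer cells of a type or from less RNA per cell, and these cannot be told apart here.

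The surfactant genes were high on all 12 arrays. Sftpc, which encodes surfactant protein C, lay between 13.68 and 13.88, where the highest value of any gene on an array lay between 13.70 and 13.88. The mean of the 22 measured type II genes lay between 11.59 and 12.10 on the 2 h arrays of both genotypes. At 24 h that mean was 11.78 to 11.83 in controls and 10.97 to 11.39 in knockout cells. Markers of other cells were present too. Scgb1a1, which encodes CCSP itself, lay between 13.56 and 13.68. The mean of 20 endothelial genes was 8.05 to 8.33 in controls and 8.64 to 9.57 in knockout cells at 2 h, and 8.12 to 8.81 and 9.02 to 9.16 at 24 h. The mean of 18 lymphocyte genes was 6.84 to 7.203 and 7.08 to 7.81 at 2 h, and 6.45 to 6.96 and 7.21 to 7.52 at 24 h. Their part in the results below was not tested. Xist (8.26 to 9.48) and the Y-linked Eif2s3y (6.95 to 8.14) were both present on every array.

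The range of values on an array also differed between the groups, and it moved with the interaction. The interquartile range of all 19938 genes was 2.25 ± 0.13 (SD, n = 3) in controls and 2.35 ± 0.20 in knockout cells at 2 h. The 24 h values were 2.47 ± 0.04 in controls and 1.95 ± 0.16 in knockout cells, whose 3 arrays stood at 1.89, 1.82 and 2.13. The median interaction was 0.25 to 0.35 in the 3 lowest of 10 equal bins of genes by mean level and -0.34 to -0.40 in the 3 highest. After the 12 arrays were quantile normalized again these medians lay between -0.04 and 0.04. Whether the narrow range came from the cells or from the array processing cannot be told apart.

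**Figure D1:**
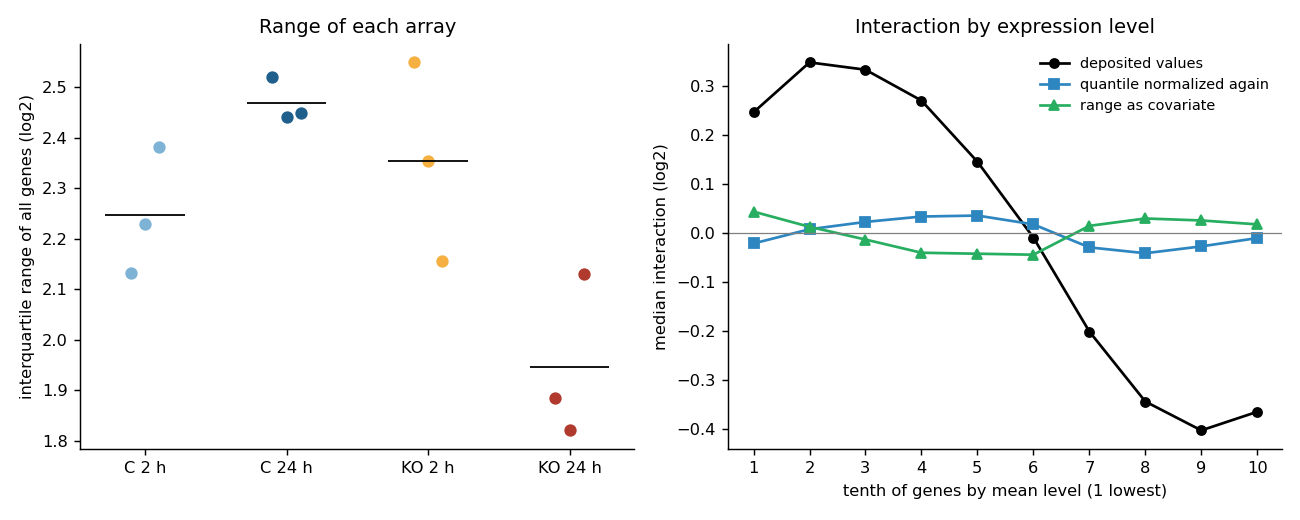
Left, the interquartile range of all genes on each array (log2 units) for control (C) and knockout (KO) cells at 2 and 24 h, with bars at the mean of 3 arrays; 2 of the 3 KO 24 h arrays lie below the other 10. Right, the median interaction (log2) of 10 equal bins of genes by mean level, in the deposited values, after a second quantile normalization and with array range as a covariate; only the deposited values run from above 0 in low genes to below 0 in high ones.

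In the deposited values the interaction was called, at a Benjamini-Hochberg adjusted p below 0.05 in limma, for 4528 of 19938 genes, or 22.7%. It was higher for 2381 genes (11.9%) and lower for 2147 (10.8%). Of these, 499 higher (2.5%) and 325 lower genes (1.63%) were called in the same direction after the second quantile normalization as well. This stricter set, chosen after the data were seen and named "both fits" here, leads the account below. Calls in the deposited values followed level. Of the 1994 genes in each of the 3 highest bins, 446, 582 and 486 were lower and 27, 18 and 11 higher. In each of the 3 lowest bins, 9, 28 and 33 of 1994 were lower and 341, 533 and 538 higher. The shares of all genes set beside lists below take no account of level. With array range as a covariate no gene was called, and 2120 had an unadjusted p below 0.05. The range differed between the groups compared, so this covariate cannot be fully separated from the interaction. Its estimates are given below without standard errors. Leaving out the 2 narrowest knockout 24 h arrays leaves 1 array in that group, so only effect sizes are used. The median interaction was then 0.17 to 0.24 in the 3 lowest bins by level and -0.20 to -0.26 in the 3 highest. Of the 325 lower genes of both fits, 308 kept their sign in every setting fitted by gene and 169 were called with any single array left out. Of the 499 higher genes, 442 kept their sign and 311 were called with any single array left out. With the replicate number as a block 18 of the lower and 30 of the higher genes were called. With array range as a covariate 116 and 99 had an unadjusted p below 0.05 in limma. The settings refit the same arrays and include the normalization that chose these genes, so kept signs are no independent support.

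The genes were sorted by what each genotype did between the times. Control changes were called higher for 6.47% and lower for 3.24% of all genes, and changes in knockout cells for 9.87% and 16.3%. Of the 325 lower genes, 134 rose in controls with no called change in knockout cells, 126 fell in knockout cells with no called change in controls, 23 rose in controls and fell in knockout cells, 15 rose in both and rose less in knockout cells, and 27 had no called change in either. Of the 499 higher genes, 287 rose in knockout cells alone, 125 fell in controls and rose in knockout cells, 40 fell in controls alone and 47 had no called change. "Alone" here means that the other change did not pass the test, and the difference between genotypes is what the interaction tests.

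**Figure D2:**
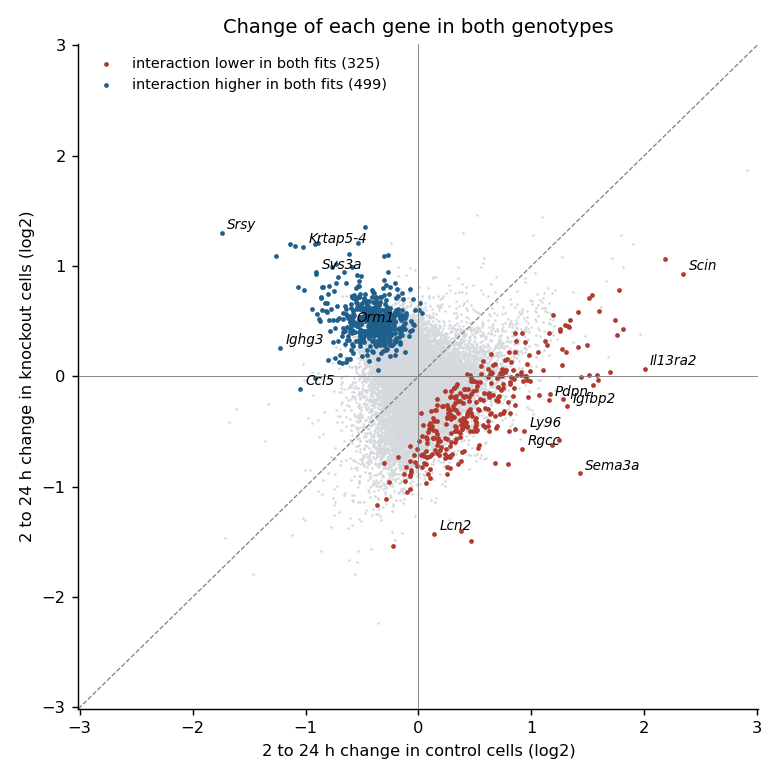
Each point is 1 of 19938 genes, placed by its log2 change from 2 to 24 h in control cells (horizontal) and in knockout cells (vertical); the dashed line marks equal change. The 325 genes with a lower interaction in both fits (red) lie below the line, 172 of them where controls rose, and the 499 with a higher one (blue) lie above it.

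Cebpa itself gives the check of the genotype. Its level was 10.43, 10.46 and 10.68 in controls and 9.98, 8.96 and 9.31 in knockout cells at 2 h, and 10.45, 10.12 and 10.22 in controls and 8.66, 8.26 and 8.38 in knockout cells at 24 h. Every knockout array lay below every control array at both times. From 2 to 24 h Cebpa fell in knockout cells, by 0.98 on the log2 scale (limma adjusted p = 0.00565), and its change in controls was -0.25 (adjusted p = 0.432). The interaction was -0.73 (SE 0.28, 95% interval -1.33 to -0.13) and did not pass (adjusted p = 0.0675). It moved to -0.41 after the second quantile normalization and to -0.06 with array range as a covariate. Without knockout 2 h replicate 2, the array at 9.98 and nearest to the controls, it was -0.45 (limma adjusted p = 0.123). Where the probes lie relative to the floxed part of the gene is not given.

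The relatives of Cebpa took no common course. Cebpg, which forms dimers with the other members but lacks their activation domains, stood at 8.67, 8.58 and 8.63 in controls and 9.14, 9.15 and 9.10 in knockout cells at 2 h. The 24 h values were 9.11, 8.84 and 9.42 in controls and 8.79, 8.90 and 9.06 in knockout cells, so the groups were apart at 2 h and overlapped at 24 h. Its interaction was -0.72 (SE 0.18, adjusted p = 0.0205). Cebpe, the member known from granulocytes, had an interaction of 0.46 (adjusted p = 0.027). Neither was called after the second quantile normalization (adjusted p = 0.259 and 0.113). Cebpb had an interaction of -0.39 (adjusted p = 0.0899) and Cebpd one of -0.36 (adjusted p = 0.297). Both members are known to respond to injury and cytokines.

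Many of the most negative interactions belonged to genes that rose in controls and did not rise in knockout cells. Il13ra2, which encodes a decoy receptor that binds interleukin 13 without signalling, was 1 of them. Its level was 4.15, 4.32 and 4.22 in controls and 4.33, 4.08 and 4.24 in knockout cells at 2 h. The 24 h values were 6.67, 6.18 and 5.85 in controls and 4.38, 4.04 and 4.44 in knockout cells. The 3 control arrays at 24 h stood apart, and the other 9 arrays lay between 4.04 and 4.44. Controls rose by 2.0 on the log2 scale (adjusted p = 1.84e-05) and the change in knockout cells was 0.07 on the log2 scale, which gave an interaction of -1.93 (SE 0.24, 95% interval -2.45 to -1.42, adjusted p = 0.00395). Signal over background was not analysed here, and the 9 low values lie below the mean of the olfactory receptor genes on any array (4.79 to 5.31), so the change in knockout cells may not be measurable and the rise in controls may be larger than its value.

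Sema3a, a secreted semaphorin that repels growing axons and blood vessel cells, had the largest negative interaction of all genes the naming rule covers. Its level in controls was 6.66, 6.42 and 7.26 at 2 h and 8.06, 8.59 and 7.99 at 24 h. In knockout cells it was 8.27, 8.17 and 7.67 at 2 h and 7.18, 7.11 and 7.17 at 24 h. The 2 genotypes thus changed places, with no overlap at either time. Controls rose 2.70-fold (adjusted p = 0.000841), knockout cells fell by 0.88 on the log2 scale (adjusted p = 0.0114), and the interaction was -2.31 (SE 0.29, 95% interval -2.94 to -1.68, adjusted p = 0.00399). It was -2.18 after the second quantile normalization and -1.56 with array range as a covariate.

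Others followed the course of Il13ra2. Scel encodes sciellin, a precursor of the envelope of stratified epithelia. In controls it stood at 5.59, 5.43 and 6.22 at 2 h and at 6.96, 7.61 and 7.31 at 24 h, against 5.75, 5.48 and 5.35 and then 5.37, 5.64 and 5.32 in knockout cells. Only the control arrays at 24 h were high, and the interaction was -1.63 (SE 0.28, adjusted p = 0.0102). Zfp711, which encodes a zinc finger protein, rose in controls by 1.59 with a change of -0.03 in knockout cells (interaction -1.62, adjusted p = 0.00464). Cped1 had an interaction of -1.56 and Phtf1os one of -1.65, both with control changes above 1.5 and changes near 0 in knockout cells. All 4 of these genes were called in both fits and with any single array left out.

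Npnt and Rgcc moved in opposite directions in the 2 genotypes. Npnt encodes nephronectin, a matrix ligand of integrin α8β1. It was 9.15, 8.99 and 9.36 in controls at 2 h and 9.63, 10.11 and 10.15 at 24 h, while knockout cells had 9.97, 9.67 and 9.32 and then 8.67, 8.63 and 9.27. At 24 h every knockout array was below every control array, and at 2 h the groups overlapped slightly. The rise of 0.80 in controls and the fall in knockout cells of nearly the same size gave an interaction of -1.59 (SE 0.28, adjusted p = 0.0104). Rgcc, a regulator of cell cycle kinases induced by complement, rose by 0.92 in controls and fell by 0.66 in knockout cells (interaction -1.58, adjusted p = 0.00731). Fbp2, the muscle form of fructose bisphosphatase, and Pof1b, an actin-binding protein of epithelial junctions, rose in controls by 1.24 and 1.18 and had interactions of -1.81 each (adjusted p = 0.0104 for both). Their falls in knockout cells, -0.57 and -0.62, did not pass.

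Tecrl was high in knockout cells at 2 h and lost that excess by 24 h. It encodes a relative of an enoyl-CoA reductase of lipid elongation. Its level was 7.65, 6.71 and 6.42 in knockout cells at 2 h and 5.47, 5.48 and 5.37 at 24 h. Controls had 5.13, 4.76 and 5.22 at 2 h and 5.12, 5.98 and 5.41 at 24 h. The 3 arrays of knockout cells at 2 h stood above the other 9. The interaction was -1.96 (SE 0.37, adjusted p = 0.0117), from a fall of 1.49 in knockout cells and a change of 0.47 in controls (adjusted p = 0.269). Zfp949 fell by 1.40 in knockout cells (interaction -1.78, adjusted p = 0.0146) and Zfp758 rose by 0.68 in controls and fell by 0.79 in knockout cells (interaction -1.47, adjusted p = 0.0104). Chil1, a chitinase-like protein, and Cd59a, an inhibitor of the complement attack complex, had interactions of -1.87 and -1.57 but were not called after the second quantile normalization (adjusted p = 0.0838 and 0.0601). With array range as a covariate the value of Chil1 turned to 0.25.

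**Figure D3:**
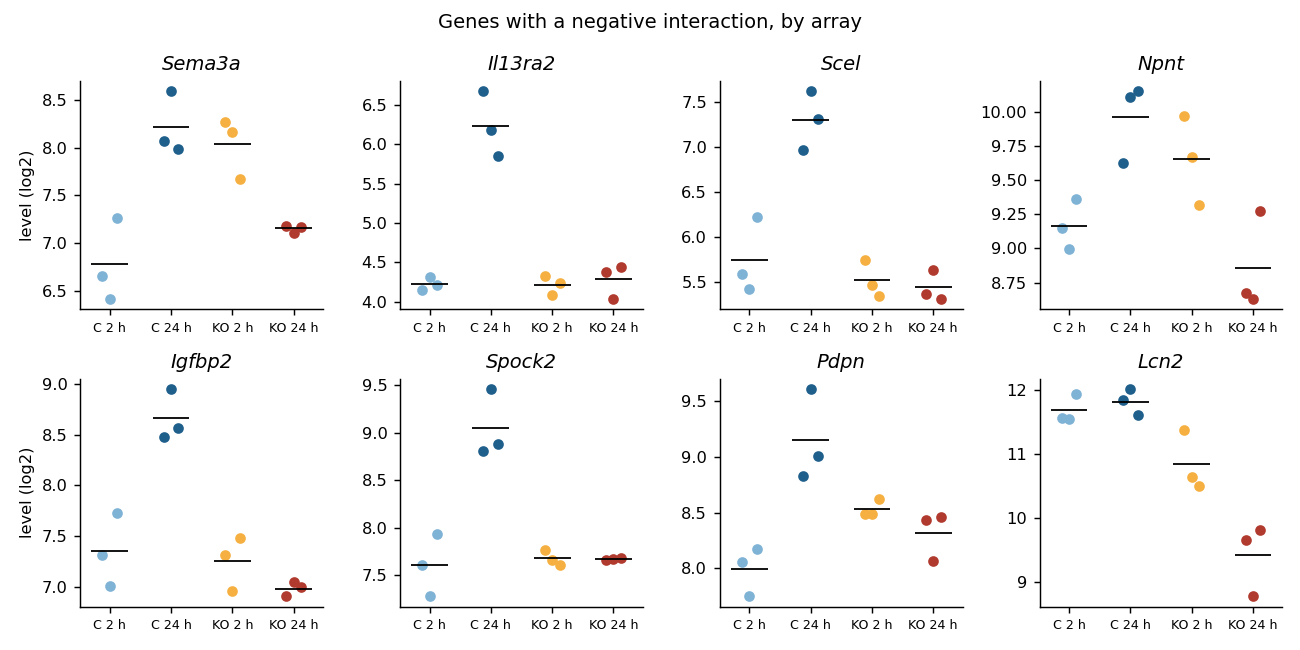
Level (log2) of 8 genes with a negative interaction on each of the 12 arrays, for control (C) and knockout (KO) cells at 2 and 24 h, with bars at the mean of 3 arrays. For Il13ra2, Scel, Igfbp2 and Spock2 the 3 C 24 h arrays stand above the other 9, Sema3a and Npnt cross over, and Lcn2 falls in KO alone.

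Some genes rose in both genotypes and rose less in knockout cells. Scin encodes scinderin, which severs actin filaments. Its level went from 6.83, 6.93 and 6.43 to 9.39, 9.24 and 8.60 in controls, and from 6.81, 6.96 and 6.64 to 7.89, 7.60 and 7.72 in knockout cells. The 2 h arrays of both genotypes overlapped and the 24 h arrays did not. The rise was 5.08-fold in controls and 1.91-fold in knockout cells (interaction -1.41, SE 0.26, adjusted p = 0.0113). The bitter taste receptor Tas2r135 (interaction -1.12), the RNA polymerase III factor Brf2 (-1.0) and the metalloprotease family member Adam30 (-0.99) behaved alike, with adjusted p between 0.00837 and 0.0143. Each rose in both genotypes and was called in both fits.

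Markers of type I cells rose in controls for 8 of 15 members and in knockout cells for 0, against 6.47% and 9.87% of all genes. Of the 15 measured, 10 had a lower interaction (66.7%, against 10.8% of all genes) and 0 a higher one. All 15 values were negative, with a median of -0.98 against 0.01 over all genes. Leaving out single arrays gave 4 to 14 lower members. In both fits 3 were lower, against 1.63% of all genes. The mean of the list was 8.81 to 9.32 in controls and 9.02 to 9.20 in knockout cells at 2 h, and 9.54 to 10.03 and 8.69 to 9.01 at 24 h. Controls thus rose above their 2 h range while knockout cells did not. In knockout cells 3 of 15 members fell, against 16.3% of all genes. The median was -0.60 after the second quantile normalization, -0.40 with arrays scaled to 1 interquartile range, -0.46 with array range as a covariate and -0.83 without the 2 narrowest arrays.

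Igfbp2, a secreted protein that binds insulin-like growth factors and marks mature type I cells, led this list. It was 7.31, 7.00 and 7.73 in controls and 7.31, 6.96 and 7.48 in knockout cells at 2 h, and 8.48, 8.95 and 8.57 in controls and 6.90, 7.04 and 6.99 in knockout cells at 24 h. The genotypes overlapped at 2 h and lay more than 1 log2 unit apart at 24 h. The interaction was -1.59 (SE 0.25, 95% interval -2.13 to -1.05, adjusted p = 0.00762), from a 2.5-fold rise in controls. Spock2, which encodes the matrix proteoglycan testican-2, had 8.81, 9.46 and 8.88 in controls at 24 h against 7.66, 7.67 and 7.68 in knockout cells. All 6 arrays at 2 h lay between 7.28 and 7.93. Its interaction was -1.45 (SE 0.24, adjusted p = 0.0089).

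Pdpn encodes podoplanin, the T1α protein of the type I cell surface. It rose in controls from 8.06, 7.75 and 8.17 to 8.83, 9.61 and 9.01, and in knockout cells it went from 8.48, 8.48 and 8.62 to 8.43, 8.06 and 8.46. At 2 h the knockout arrays were the higher ones and at 24 h the lower ones. The interaction was -1.37 (SE 0.25, adjusted p = 0.0113). Scnn1g, the γ subunit of the epithelial sodium channel (-1.21, adjusted p = 0.0226), and Hopx, a homeodomain protein of type I cells (-0.99, adjusted p = 0.0252), were called in the deposited values and not after the second quantile normalization. Ager, the receptor for advanced glycation end products, had an interaction of -0.68 (adjusted p = 0.0311), but it fell in knockout cells, by 0.76, and its change in controls was -0.09, and with arrays scaled to 1 interquartile range its value was 0.64.

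Promoter sequences of Il13ra2, Igfbp2 and Msmo1 are shown because these genes carry the pattern of a control rise without one in knockout cells, or, for Msmo1, the lipid course below, and because each window holds a match to the AP-1 motif TGANTCA, the site of Fos and Jun dimers. The windows are those of RefSeq on GRCm38.p6, 250 bases before to 50 after a start, written in the direction of the gene with the match in capitals.
Il13ra2, chrX:147429143-147429442, minus strand: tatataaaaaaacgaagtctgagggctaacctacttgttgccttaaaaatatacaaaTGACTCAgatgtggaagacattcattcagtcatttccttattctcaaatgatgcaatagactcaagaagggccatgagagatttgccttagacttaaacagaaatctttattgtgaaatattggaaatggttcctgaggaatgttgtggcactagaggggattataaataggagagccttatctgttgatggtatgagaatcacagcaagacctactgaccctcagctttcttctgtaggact
Igfbp2, chr1:72825137-72825436, plus strand: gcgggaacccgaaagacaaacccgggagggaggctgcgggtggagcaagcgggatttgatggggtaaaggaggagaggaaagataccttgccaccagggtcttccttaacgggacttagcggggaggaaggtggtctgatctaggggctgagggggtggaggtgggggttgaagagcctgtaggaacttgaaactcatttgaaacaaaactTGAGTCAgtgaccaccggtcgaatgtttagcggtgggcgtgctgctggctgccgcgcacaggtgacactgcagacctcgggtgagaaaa
Msmo1, chr8:64733529-64733828, minus strand: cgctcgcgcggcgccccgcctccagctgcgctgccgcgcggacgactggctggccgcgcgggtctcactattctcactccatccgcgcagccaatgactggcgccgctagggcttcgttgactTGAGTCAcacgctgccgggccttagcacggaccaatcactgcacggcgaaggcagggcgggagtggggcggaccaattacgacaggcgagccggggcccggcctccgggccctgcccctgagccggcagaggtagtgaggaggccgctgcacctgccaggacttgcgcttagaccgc

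The matches begin at position -193 in Il13ra2, -39 in Igfbp2 and -127 in Msmo1, counted from the start of the transcript. Both strands were searched for this motif, for the C/EBP motif TTGCNNAA and for the sterol regulatory element TCACNCCAC. The AP-1 motif stood in 27 of 326 windows of the genes lower in both fits (8.28%) and in 35 of 400 windows of the genes higher in both fits (8.75%), against 6.88% of the 19116 windows of all measured genes. The C/EBP motif stood in 26 of those 326 windows (7.98%) and in 9.76% of all, and in 46 of the 400 (11.5%). The windows of Sema3a, Spock2, Pdpn, Scnn1g, Lss, Cyp51, Hsd17b7, Sc5d and the other start of Igfbp2, which were searched too, hold none of the 3 motifs. A match or its absence describes these letters only.

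Genes of cholesterol synthesis and uptake had a course like that of the type I markers in the deposited values. Of 18 measured, 11 had a lower interaction (61.1%, against 10.8% of all genes) and 0 a higher one. All 18 values were negative and the median was -0.99. Leaving out single arrays gave 1 to 15 lower members. In both fits 2 were lower, against 1.63% of all genes. The mean of the list was 9.10 to 9.63 in controls and 8.70 to 9.45 in knockout cells at 2 h, and 9.75 to 9.94 and 8.43 to 9.11 at 24 h. At 24 h the genotypes did not overlap, and at 2 h they did. Controls rose for 8 members, against 6.47% of all genes. Knockout cells rose for 0 and fell for 4, against falls for 16.3% of all genes. The direction depended on the range of the arrays, since the median was -0.64 after the second quantile normalization, -0.23 with arrays scaled to 1 interquartile range and 0.29 with array range as a covariate.

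Msmo1, the sterol methyl oxidase that removes the methyl groups at carbon 4 of the sterol ring, and Sc5d, the sterol desaturase near the end of the pathway, were the 2 members called in both fits. Sc5d, named after its values were seen, went from 9.10, 9.13 and 9.44 to 9.93, 9.997 and 10.12 in controls. In knockout cells it went from 9.30, 9.26 and 8.87 to 8.75, 8.70 and 9.28. The control arrays at 24 h stood above all others. Its interaction was -1.03 (SE 0.23, adjusted p = 0.0155). Msmo1 fell by 0.62 in knockout cells and had an interaction of -1.16 (SE 0.27, adjusted p = 0.0174), with 0.06 under scaling to 1 interquartile range. Lss, which closes the sterol rings (-1.36), Cyp51, which removes the methyl group at carbon 14 (-1.34), and Hsd17b7, a sterol ketoreductase (-1.23), were called in the deposited values alone. With array range as a covariate Lss had 0.47 and Cyp51 0.51.

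Other lipid genes had fewer calls. Of 20 genes of glycerolipid synthesis and lipid droplets 7 were lower and 0 higher, with 2 lower in both fits. Plin2, the coat protein of lipid droplets, was 10.21, 10.29 and 10.26 in controls and 10.28, 9.99 and 10.12 in knockout cells at 2 h, and 10.99, 11 and 10.87 in controls and 9.30, 9.60 and 10.15 in knockout cells at 24 h. It rose in controls by 0.70, the groups overlapped at 2 h only, and the interaction was -1.15 (SE 0.23, adjusted p = 0.0132). Lpin1, the phosphatidate phosphatase that makes diacylglycerol, rose in controls by 0.85 and had an interaction of -1.12 (SE 0.20, adjusted p = 0.0104). Of 19 genes of fatty acid synthesis 6 were lower (31.6%) and 2 higher (10.5%), against 10.8% and 11.9% of all genes, and 0 in both fits. The median of this list turned from -0.59 to 0.22 with arrays scaled to 1 interquartile range, where 6 members were higher and 0 lower, and to 0.26 with array range as a covariate. Insig1, which holds sterol regulators in the endoplasmic reticulum, had the largest value (-0.96), which turned to 0.05 and 0.32 in those settings. Acss2, which makes acetyl-CoA from acetate, had -0.94.

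The type II cell genes had smaller values. Of 22 measured 7 were lower (31.8%, against 10.8% of all genes and 486 of 1994 in the highest bin by level) and 0 higher. The median was -0.56, and 2 were lower in both fits, against 1.63% of all genes. Leaving out single arrays gave 1 to 18 lower members. Here knockout cells fell, for 19 of 22 genes against 16.3% of all genes, and controls had 0 called changes. The median turned positive, to 0.62, with arrays scaled to 1 interquartile range and to 0.22 with array range as a covariate. The direction of this list thus depends on how the array range is treated. Scaling widens the narrow knockout 24 h arrays, which by itself raises high genes there and lowers low ones. A turn of sign under scaling, here and elsewhere, may therefore reflect the level of the genes and does not settle their direction. Ctsh, the protease cathepsin H that processes surfactant protein, was 11.80, 11.55 and 11.91 in controls at 2 h and 12.11, 11.86 and 12.06 at 24 h. In knockout cells it was 12.23, 12.13 and 11.74 and then 10.91, 10.95 and 11.60. The 24 h arrays did not overlap between genotypes, and the interaction was -1.14 (SE 0.25, adjusted p = 0.0155), with 0.14 under scaling to 1 interquartile range. Lyz2, the lysozyme of type II cells and macrophages, had -0.56 (adjusted p = 0.0195) and 1.15 under that scaling, and was chosen after its values were seen. Napsa, the aspartic protease napsin A, had -0.99 (adjusted p = 0.0306) and 0.21 under that scaling, and was not called after the second quantile normalization.

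Genes of innate sensing and defence divided. Ly96 encodes MD-2, the part of the endotoxin receptor that holds the lipid and that works with Tlr4. It was 6.33, 6.72 and 6.29 in controls and 7.08, 6.70 and 6.65 in knockout cells at 2 h, and 7.28, 7.47 and 7.39 in controls and 6.33, 6.29 and 6.32 in knockout cells at 24 h. Controls rose above their 2 h values and knockout cells fell below theirs. The interaction was -1.43 (SE 0.19, adjusted p = 0.00399). Tlr4, looked at after the value of Ly96 was seen, had an interaction of -1.0 (adjusted p = 0.0167) and was lower in both fits.

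Of 23 acute phase and defence genes 6 were lower (26.1%) and 3 higher (13.0%), against 10.8% and 11.9% of all genes. In both fits 2 were lower and 1 higher, against 1.63% and 2.5%. Lcn2 encodes lipocalin 2, which starves bacteria of iron. It was 11.56, 11.55 and 11.93 in controls at 2 h and 11.83, 12.01 and 11.61 at 24 h, against 11.38, 10.64 and 10.50 and then 9.65, 8.77 and 9.81 in knockout cells. The change in controls was 0.14 (adjusted p = 0.762), and the fall of 1.42 in knockout cells gave an interaction of -1.56 (SE 0.36, adjusted p = 0.0167). With array range as a covariate it was -0.19. Saa3, a serum amyloid A protein chosen after its values were seen, rose by 1.25 in controls (interaction -0.82, adjusted p = 0.0236). Orm1, the acute phase α1-acid glycoprotein, went the other way, falling by 0.60 in controls and rising by 0.46 in knockout cells (interaction 1.06, adjusted p = 0.015). Chia1, an acidic chitinase, had -1.05 (adjusted p = 0.0245) and was not called after the second quantile normalization.

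Most antioxidant and stress genes were not called in both fits. Of 23 NRF2 targets and antioxidant genes 6 were lower and 0 higher. The 6 are 26.1%, against 10.8% of all genes and 486 of 1994 in the highest bin by level. In both fits 2 were lower, against 1.63% of all genes. The direction of this list depended on the setting. Its median was -0.27 in the deposited values and 0.07 after the second quantile normalization. With arrays scaled to 1 interquartile range it was 0.54, with 8 higher and 1 lower, but scaling by itself raises high genes. In the deposited values the highest bin by level had a median of -0.365, so neither value settles the direction. Nqo1, the quinone reductase that is the usual marker of NRF2 activity, rose in controls from 7.00, 6.81 and 6.92 to 7.69, 7.67 and 7.84. In knockout cells it was 7.37, 7.22 and 7.28 at 2 h and 7.37, 7.42 and 7.48 at 24 h. Knockout cells thus began higher than controls and ended lower. Its interaction was -0.69 (SE 0.13, adjusted p = 0.0115), and it was named after its values were seen.

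Mt2, a metallothionein that binds zinc and scavenges radicals, went from 11.36, 11.38 and 11.28 to 11.82, 11.56 and 11.76 in controls and from 11.35, 11.69 and 11.73 to 10.59, 10.95 and 10.94 in knockout cells. At 24 h every knockout array lay below all the other arrays. The 24 h control arrays lay above those of 2 h, with a change that did not pass (0.37, adjusted p = 0.0762), and overlapped the 2 h knockout arrays. The interaction was -1.14 (SE 0.18, adjusted p = 0.00762), with 0.03 under scaling to 1 interquartile range. Mt1, its neighbour in the family (-0.77, and 0.54 under that scaling), and Gpx1, the glutathione peroxidase of the cytosol (-0.91, and 0.39 with array range as a covariate), were called in the deposited values alone.

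The other stress lists had 0 members called in both fits, except for Mt2, which is also 1 of 15 glucocorticoid targets. Of 16 p53 targets 3 were lower, led by Sesn2 (-0.87), and of 23 genes of the integrated stress and unfolded protein responses 6, led by Asns, the asparagine synthetase (-1.11). Of 21 HIF and glycolysis genes 4 were lower, led by hexokinase 2, Hk2 (-0.88), of 22 immediate early genes 3, led by Fosb (-0.83, and 0.58 under scaling), and of 17 clock genes 3, led by Cry2 (-0.93). Of 15 glucocorticoid targets 3 were lower, led by Zbtb16 (-1.51), of 15 heat shock genes 3, led by Hspb1 (-0.88), and of 21 proteasome subunits 5, led by Psmd14 (-0.62). No member of these 8 lists was called higher in the deposited values, and the shares called lower, 13.6% to 26.1%, stand against 10.8% of all genes. Their median levels, 8.05 to 9.82, lie in the 3 highest bins by level. There 446, 582 and 486 of 1994 genes per bin were lower, and no list exceeded the share of its bin. With arrays scaled to 1 interquartile range 0 members were lower, and 8 immediate early, 6 HIF, 6 heat shock, 5 integrated stress, 3 proteasome, 2 glucocorticoid and 1 p53 members were higher. The median then turned positive for 6 of the 8 lists, from 0.07 in glucocorticoid targets to 0.48 in immediate early and 0.56 in heat shock genes, and was -0.05 in p53 targets and -0.07 in clock genes. All 23 measured respiratory chain genes had negative values with a median of -0.42 and 0 were called, although 14 had an unadjusted p below 0.05 in limma and 0 had after the second quantile normalization. The respiratory chain and proteasome lists had medians of -0.11 and -0.02 after that step, and 0.14 each with arrays scaled to 1 interquartile range.

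Genes of transitional epithelium, the state between type II and type I cells, were not called in both fits. In the deposited values 3 of 16 were lower (18.8%, against 10.8% of all genes and 486 of 1994 in the highest bin by level). These were led by Sprr1a (-1.34, adjusted p = 0.0151), Tnip3 (-1.23, adjusted p = 0.0114) and Itgb6, the integrin that activates TGFβ (-0.92, adjusted p = 0.00762). Each was called with any single array left out, and their adjusted p after the second quantile normalization was 0.0748, 0.0526 and 0.0562. The median of the list was 0.82 under scaling to 1 interquartile range, so its direction also depends on that choice. As scaling by itself raises high genes on the narrow arrays, this value does not settle the direction. Nor does the deposited median of -0.30, since the highest bin by level had -0.365. Of 8 genes of MHC class II presentation 3 were lower (37.5%, against 10.8% of all genes), led by H2-Ab1 (-1.24) and H2-Aa (-0.94). H2-Oa was higher (0.58), and 0 members were called in both fits. The median of this list turned from -0.83 to 0.27 with array range as a covariate, where H2-Ab1 and H2-Aa had 0.27 and 0.14, and it was 0.17 with scaling to 1 interquartile range. Of 24 cell cycle genes 1 was higher, the mitotic kinase Aurka (0.61), and 1 lower, Rrm1 of ribonucleotide reductase (-0.54). Both turned sign with array range as a covariate. These are 4.17% each, below the 11.9% and 10.8% of all genes. Of 19 interferon-stimulated genes 1 was lower (5.26%, against 10.8% of all genes), the RNA sensor Ddx58 (-0.54).

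Nfyb, a subunit of the CCAAT-binding factor, and Cdh16, an epithelial cadherin, fell in both genotypes and fell further in knockout cells. Nfyb had an interaction of -0.59 (adjusted p = 0.0135) and Cdh16 one of -0.75 (adjusted p = 0.0247). Neither was called after the second quantile normalization (adjusted p = 0.1 and 0.0909).

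Few lymphocyte markers were called. Of 18 measured 3 were higher (16.7%, against 11.9% of all genes) and 0 lower, 17 of 18 values were positive and the median was 0.44. In both fits 1 was higher, against 2.5% of all genes. Ighm, the constant region of immunoglobulin M, was 8.12, 8.63 and 7.77 in controls at 2 h and 7.56, 7.64 and 7.43 at 24 h, against 8.14, 7.84 and 8.35 and then 8.68, 8.44 and 8.21 in knockout cells. At 24 h every control array was below every knockout array. Its interaction was 0.96 (SE 0.27, adjusted p = 0.0274), and it was called in 5 of 12 fits that left out 1 array. Gzma, a granzyme of killer cells (1.09), and Nkg7, a granule protein of the same cells (0.56), were called in the deposited values alone. Ptprc, the CD45 of all leukocytes, had 0.87 and did not pass (adjusted p = 0.0767). With array range as a covariate the median of the list was -0.41.

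Ccl5, a chemokine that draws T cells and monocytes, also had a positive interaction. It was 9.80, 10.11 and 9.60 in controls and 9.90, 9.92 and 10.37 in knockout cells at 2 h. The 24 h values were 8.96, 8.77 and 8.64 in controls and 9.71, 9.98 and 10.18 in knockout cells. The 3 control arrays at 24 h were below the other 9. Controls fell by 1.05 and the interaction was 0.94 (SE 0.23, adjusted p = 0.0196), larger after the second quantile normalization (1.32). Of 23 chemokine ligands 4 were higher (17.4%) and 2 lower (8.7%), against 11.9% and 10.8% of all genes. The lower ones were led by Cxcl16 (-0.78, and 0.21 under scaling to 1 interquartile range), and only Ccl5 was called in both fits. The mean of the lymphocyte list also had its lowest value on a control array at 24 h. On the knockout 24 h arrays that mean was 7.52, 7.49 and 7.21, in the opposite order to Ccl5. The part of lymphocytes in the Ccl5 values was not tested.

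Immunoglobulin G3 was also among the leading positive interactions. Ighg3 was 6.06, 6.57 and 6.40 in controls at 2 h and 4.88, 5.15 and 5.32 at 24 h, against 5.53, 5.21 and 5.64 and then 5.56, 5.82 and 5.78 in knockout cells. The genotypes changed places without overlap at either time. Every control array was lower at 24 h than at 2 h, while the knockout arrays of the 2 times overlapped. The control 24 h values lie near the mean of the olfactory receptor genes on any array (4.79 to 5.31). The interaction was 1.48 (SE 0.22, adjusted p = 0.00574), and it was 1.5 with array range as a covariate. Constant regions of the immunoglobulin genes resemble one another, so probes may not separate them fully.

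Markers of other cells had few calls in the deposited values. Of 19 macrophage markers 3 were lower (15.8%, against 10.8% of all genes) and 0 higher. In this list 11 values were negative and 8 positive. The mean of the list was 7.00 to 7.36 in controls and 7.22 to 7.75 in knockout cells at 2 h. At 24 h it was 6.94 to 7.27 and 7.13 to 7.34, so the control rise of Csf1r was not that of the list. Csf1r, the receptor of the macrophage growth factor, was lower in both fits. Csf1r was 7.11, 7.35 and 7.23 in controls and 7.52, 7.74 and 7.54 in knockout cells at 2 h, and 8.02, 8.10 and 8.01 in controls and 7.39, 7.57 and 7.61 in knockout cells at 24 h. The groups lay apart at both times, in opposite order. Its interaction was -0.89 (SE 0.14, adjusted p = 0.00871), and that of Cd68, a lysosomal protein of macrophages, was -1.19 (adjusted p = 0.0162). Of 12 neutrophil markers 2 were higher (16.7%, against 11.9% of all genes), the granule genes S100a8 (0.86) and Camp (0.68). Of 20 fibroblast and smooth muscle markers 1 was higher, the growth factor receptor Pdgfra (0.95), and 1 lower, the collagen Col6a1 (-0.79). These are 5.0% each, below the shares of all genes. Of 20 endothelial markers 1 was lower (5.0%, against 10.8% of all genes), the junction protein Esam (-0.71). However, with array range as a covariate the endothelial median moved from -0.35 to -1.23. In that fit 16 of 20 members had an unadjusted p below 0.05 in limma and 0 were called. Of 14 airway markers 0 were called in limma, with 0 at an unadjusted p below 0.05 and 7 after the second quantile normalization, and with arrays scaled to 1 interquartile range 8 were higher and the median moved from 0.17 to 0.87. Apart from Csf1r none of these was called in both fits.

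**Figure D4:**
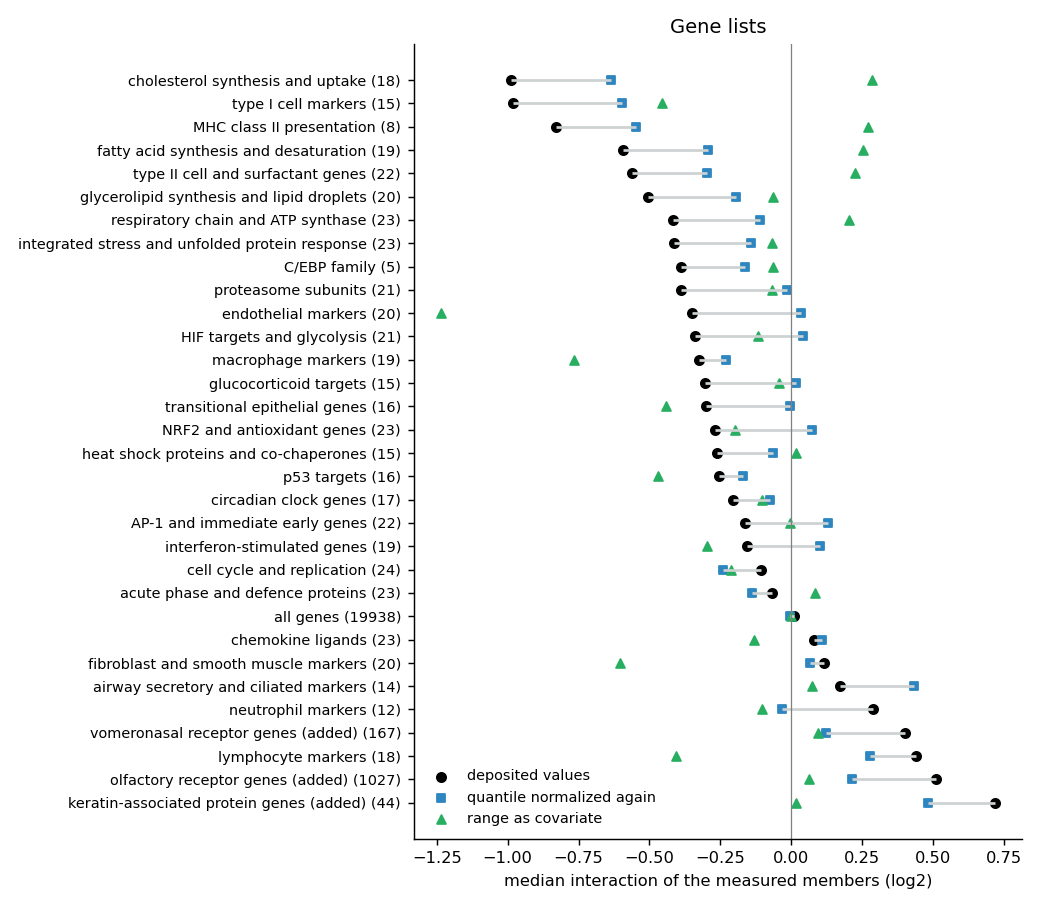
Median interaction (log2) of the measured members of each gene list, with their number in brackets, in the deposited values (circles), after a second quantile normalization (squares) and with array range as a covariate (triangles). Cholesterol genes and type I markers have the lowest medians in the deposited values, -0.99 and -0.98, and the cholesterol median lies above 0 with the covariate while that of type I markers stays below.

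Srsy, a serine-rich gene of the Y chromosome, had the largest positive interaction. It was 9.14, 8.61 and 8.87 in controls at 2 h and 6.96, 7.66 and 6.78 at 24 h, against 7.47, 8.08 and 8.46 and then 9.41, 9.46 and 9.04 in knockout cells. Controls fell by 1.74 and knockout cells rose by 1.3, with no overlap at either time. The interaction was 3.04 (SE 0.35, 95% interval 2.29 to 3.79, adjusted p = 0.00395). The naming rule passes over predicted genes, of which Gm21286 (2.36) and others had larger values than the genes that follow. Svs3a, a secretory protein of the seminal vesicle (1.85), Ssxb10 (1.79), Tdpoz3 (1.61) and Tmem92 (1.58) also fell in controls and rose in knockout cells, and all 4 were called in both fits and with any single array left out.

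Keratin-associated proteins, which fill the hair shaft, followed. Krtap5-4 was 7.47, 7.198 and 7.21 in controls at 2 h and 5.98, 6.60 and 6.24 at 24 h, against 6.19, 5.85 and 7.41 and then 7.86, 8.13 and 6.98 in knockout cells. One knockout array at 2 h, 7.41, lay among the control values, and at 24 h the genotypes did not overlap. Its interaction was 2.19 (SE 0.48, adjusted p = 0.0155) and 0.34 with array range as a covariate. Krtap5-2 (2.09), Krtap5-3 (1.73) and Krtap5-1 (1.58) were called in both fits too, and members of this family are so alike that probes may not separate them. Of 44 members of the keratin-associated family 27 were higher (61.4%, against 11.9% of all genes) and 0 lower. In both fits 9 were higher, against 2.5% of all genes.

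Sensory receptor genes were also among the higher genes. Of 1027 olfactory receptor genes 452 were higher (44.0%, against 11.9% of all genes) and 2 lower, and 109 and 1 in both fits. Their mean level was 4.997 to 5.11 in controls and 4.79 to 5.10 in knockout cells at 2 h, and 4.80 to 4.86 and 5.09 to 5.31 at 24 h, where the groups did not overlap. Of 167 vomeronasal receptor genes 56 were higher (33.5%) and 0 lower, and 9 were higher in both fits, against 2.5% of all genes. These 3 families, grouped after the data were seen, held 127 of the 499 higher genes of both fits and 1 of the 325 lower ones. With arrays scaled to 1 interquartile range the median turned from 0.51 to -0.11 for olfactory and from 0.40 to -0.41 for vomeronasal receptors. That setting by itself lowers low genes on the narrow knockout arrays, so these turns may reflect level. The positive deposited medians may reflect it too, as the 3 lowest bins had medians of 0.25 to 0.35. With array range as a covariate the median was 0.06, 0.10 and 0.02 for the 3 families.

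Other leading positive interactions belonged to genes outside these families. St6galnac1 encodes a sialyltransferase of mucin sugars. It was 6.90, 6.17 and 6.73 in controls at 2 h and 6.03, 6.06 and 5.58 at 24 h, against 5.87, 5.59 and 6.57 and then 7.01, 7.30 and 6.43 in knockout cells. At 24 h every knockout array lay above every control array, and the interaction was 1.62 (SE 0.37, adjusted p = 0.0167). Sfi1, a centrin-binding protein of the centrosome, fell by 0.64 in controls and rose by 0.85 in knockout cells (interaction 1.49, adjusted p = 0.0104). Slc19a1, the reduced folate carrier, had an interaction of 1.74 (SE 0.48, adjusted p = 0.026) but was called in only 4 of 12 fits that left out 1 array, with 0.02 when the array range was a covariate. Its 2 h values in knockout cells, 7.29, 7.12 and 8.89, were spread over more than those of any other group.

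**Figure D5:**
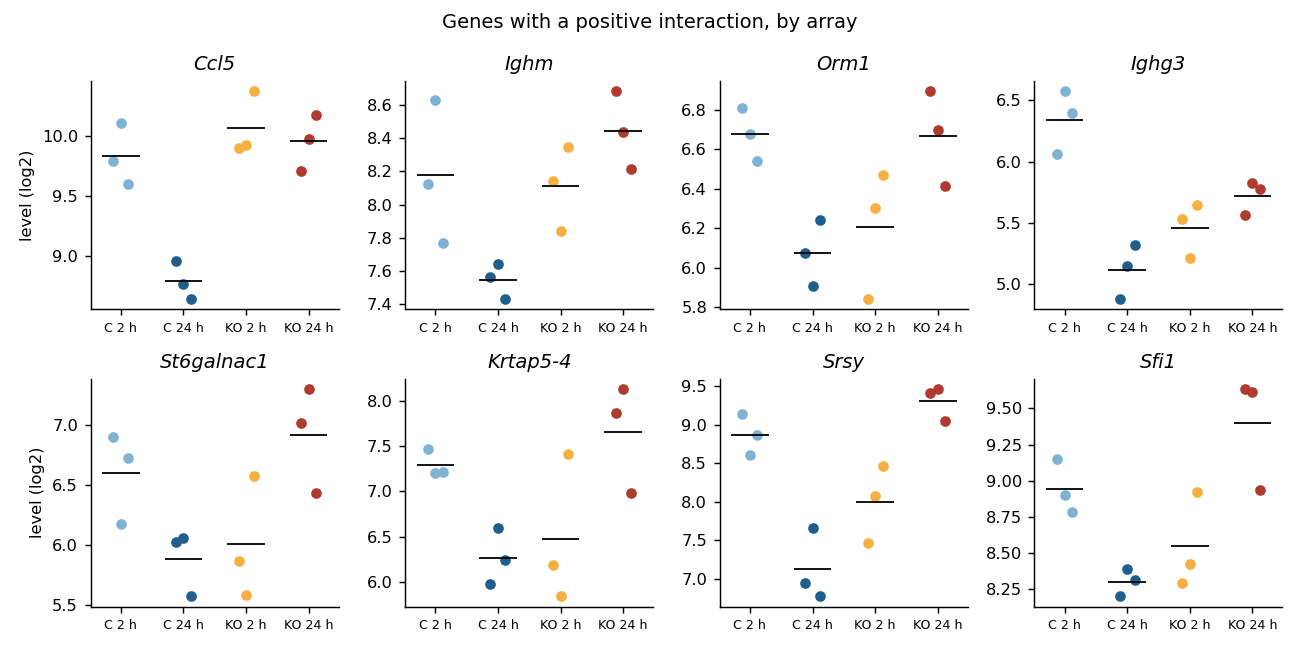
Level (log2) of 8 genes with a positive interaction on each of the 12 arrays, for control (C) and knockout (KO) cells at 2 and 24 h, with bars at the mean of 3 arrays. Ccl5 is low on the 3 C 24 h arrays alone, and Srsy and Ighg3 cross over between the genotypes.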

How the data were processed

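Per the submitters' processing notes the authors made the deposited log2 values with RMA. Its version, the genome build, any filter and which arrays were normalized together are not given in the sources used here. Of 35557 features 21789 had 1 gene symbol, of which 21698 matched a RefSeq gene through the Entrez identifier, 1621 had several symbols and 12147 none. Only the features with 1 symbol were used. Where a gene had more than 1 of them (999 genes) the one of highest mean over all 18 arrays was kept. This left 19938 genes, and low values were not filtered. No value was missing and no 2 arrays were identical.

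The 12 arrays at 2 and 24 h were fitted with limma 3.58.1 (lmFit and eBayes, default settings) in R 4.3.3, with 1 mean per group, 3 arrays per group and no covariate. Two-sided p-values were adjusted over the 19938 genes (Benjamini-Hochberg), with calls made below an adjusted p of 0.05. The number of arrays limits the precision. The script was tested on simulated data.

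The text names the 5 C/EBP genes, up to 15 called genes of largest interaction in each direction and 5 in each class of change, and up to 4 called members of each of 28 gene lists (511 of 546 entries measured), in order of rank, passing over predicted and receptor genes. The comparison, the lists and the naming rule were chosen with earlier results of these data known. The alternatives were each array left out, all 18 arrays, a second quantile normalization, median centring, scaling to 1 interquartile range, the interquartile range as a covariate, array weights, the 2 narrowest knockout 24 h arrays left out, the replicate block, the mean of a gene's features, every feature alone, the upper 60 percent of genes, trend and robust settings, and at least 1.5-fold. Calls shared with the second quantile normalization, list counts under the alternatives and the 3 added families were chosen after the data were seen.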

Additional observations from a re-analysis of the deposited data

Results flagged for a closer look

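Genes are given here because controls and knockout cells both changed from 2 to 24 h, in opposite directions, each change and the interaction being called in limma, the interaction in both fits. Lower in knockout cells were Sema3a (interaction -2.31), Npnt (-1.59), Rgcc (-1.58), Zfp758 (-1.47) and Ly96 (-1.43). Higher were Srsy (3.04), Svs3a (1.85), Ssxb10 (1.79), Tdpoz3 (1.61), Tmem92 (1.58), Sfi1 (1.49) and Orm1 (1.06). Of all genes 189 had such opposite changes, 29 with a lower and 160 with a higher interaction. Of these, 148 were called in both fits, of which 50 were olfactory receptors, vomeronasal receptors or keratin-associated proteins.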

How the results depend on the processing

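The count of 4528 called genes depended on single arrays. It ranged from 917 to 7879 over the 12 fits that left out 1 array. It moved by more than 1.5 times without control 2 h replicate 1 (971) or 2 (1843), without knockout 2 h replicate 2 (2076), 3 (1793) or 4 (7879), without control 24 h replicate 1 (1701), 2 (2472) or 3 (2162), and without knockout 24 h replicate 1 (1176), 2 (917) or 4 (7584). It was 994 after the second quantile normalization, 11067 with array weights, 2857 with at least 1.5-fold and 0 with array range as a covariate. In the upper 60 percent it was 2284 of 11963 genes (484 higher, 1800 lower). Leaving out the 2 narrowest arrays leaves 1 knockout array at 24 h, so calls are not counted there. The count stayed within 1.5 times with all 18 arrays (6138), median centring (4227) and scaling (3191). The same held for the mean of a gene's features (4554), every feature alone (6117) and trend and robust settings (4500). Fewer genes are tested in the upper 60 percent; otherwise the cause was not tested.

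With the replicate number as a block the count was 52. Same-numbered arrays showed no common deviation from their group means: r lay between -0.574 and 0.202 over 13 pairs, 2 of them above 0.1. Over 41 other pairs it lay between -0.57 and 0.632. The highest r joined the widest arrays of their groups, so array range can set these values. They cannot show whether same-numbered arrays were prepared together. Whether a shared preparation lies behind the drop to 52 calls was not tested.

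The Cebpa interaction was negative in every setting fitted by gene. It lay between -0.96 and -0.45 with 1 array left out, passed without knockout 2 h replicate 3 (adjusted p = 0.04) and passed with all 18 arrays (-0.73, adjusted p = 0.0367).

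Of 96 named genes besides Cebpa 74 kept their sign in every setting fitted by gene that tested them. Leaving out 1 array ended between 0 and 43 of their calls, the most without knockout 24 h replicate 2. With array range as covariate the sign turned for Cebpd (0.62), Cyp51 (0.51), Lss (0.47), Gpx1 (0.39), Insig1 (0.32), H2-Ab1 (0.27), Chil1 (0.25), Napsa (0.19), H2-Aa (0.14), Rrm1 (0.078), Cdh16 (0.008), Aurka (-0.029) and Ptprc (-0.27). With scaling to 1 interquartile range it turned for Lyz2 (1.15), Ager (0.64), Fosb (0.58), Mt1 (0.54), H2-Aa (0.26), Napsa (0.21), Cxcl16 (0.21), Ctsh (0.14), Cebpb (0.093), Msmo1 (0.056), Insig1 (0.048) and Mt2 (0.034). Scaling by itself raises high genes on the narrow knockout 24 h arrays, so turns in that setting may reflect level. The deposited values may reflect it too, since their medians ran from above 0 in low genes to below 0 in high ones. After the second quantile normalization the sign turned for Cebpb (0.005), and without the 2 narrowest arrays for Cebpd (0.05). Signal over background was not analysed here, so no floor could be set for dim genes.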
